A study of Mus musculus with 20 samples.

Results

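The genes described here encode the mTOR complexes and the proteins that report amino acid supply to them. They were chosen by symbol, 41 genes in all, and for each the probe set of highest mean signal over all arrays stands for the gene. Of the 41, 39 had a probe set assigned to that gene alone, out of 19505 genes measured on the array. Akt1s1, an inhibitory subunit of mTORC1, and Rps6kb1, an S6 kinase, had no probe set of their own and are not analysed here.

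The arrays held total RNA of CD4+CD25+ regulatory T cells (Tregs) sorted from C57BL/6 mice, in 2 experiments with their own WT arrays. In the Rheb experiment, Rheb1/2 KO Tregs were set beside WT Tregs, stimulated and unstimulated, with 3 arrays in each of the 4 groups. In the Rag experiment, RagAB KO Tregs were set beside WT Tregs, stimulated for 8 h and unstimulated, with 2 arrays in each of the 4 groups. The stimulus, its duration in the Rheb experiment, the Cre line or promoter behind either knockout and the age of the mice are not known from the labels. Whether arrays of a group came from separate mice is not stated either, so p-values measure the spread between these arrays, which may be technical. In bulk samples such as these, fewer cells with a transcript and less of the transcript per cell cannot be told apart.

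mTORC1 is a kinase complex built on mTOR and Raptor that drives protein synthesis and growth. It becomes active on the lysosome, where the Rag GTPases, held there by Ragulator, recruit it when amino acids are plentiful, and where the GTPase Rheb switches it on when growth factor signals have silenced the TSC complex. Castor and sestrin proteins sense arginine and leucine and act through GATOR2 on GATOR1, the complex that turns RagA and RagB off. In Tregs, mTORC1 activity is known to be needed for suppressive function.

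Array medians ranged over 7.67 to 7.77 log2 units on the 12 Rheb arrays and over 7.18 to 7.55 on the 8 Rag arrays, where unstimulated RagAB KO array 1 (7.29) and unstimulated WT array 2 (7.18) were the lowest. The median residual SD of the 39 genes was 0.167 in the Rheb experiment and 0.331 in the Rag experiment, against 0.16 and 0.245 over all genes. Ctla4, Ikzf2, Ikzf4, Tnfrsf18, Nt5e, Entpd1, Cd4 and Cd3e, markers of Tregs or of CD4 T cells, lay above the array median on all 20 arrays, and Il2ra, which encodes CD25, did so on 14. Foxp3 had no probe set assigned to it alone. Rheb was lower in Rheb1/2 KO (-0.93 log2 units with stimulation and -0.88 without, adjusted p = 0.0278 and 0.0413, limma), and Rraga was lower in RagAB KO (-2.18 and -2.43, adjusted p = 0.00448 and 0.00266), while Rhebl1, which encodes Rheb2, and Rragb were not called. The titles and the treatment entries of 6 arrays disagree on their state (3 of unstimulated Rheb1/2 KO and 3 of stimulated WT), and the groups follow the titles, as do the source names and the design text.

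Stimulation changed 6 of the 39 genes in each genotype of the Rheb experiment, among them 3 of the 5 Castor and sestrin genes. In WT Tregs of the Rheb experiment 4 genes rose (Castor2, Wdr59, Eif4ebp1 and Pdpk1) and 2 fell (Castor1 and Sesn1) at an adjusted p below 0.05, where 9.37% of all genes were called (4.49% higher and 4.89% lower). In Rheb1/2 KO Tregs 3 rose (Castor2, Wdr59 and Lamtor5) and 3 fell (Castor1, Sesn1 and Rptor), where 9.75% of all genes were called (4.55% higher and 5.19% lower). At an unadjusted p below 0.05 there were 10 of the 39 in each genotype, where 21.1% of all genes passed. The median change of the 39 genes was 0.07 log2 units in WT and 0.04 in Rheb1/2 KO, beside 0.02 and -0.01 over all genes. In the Rag experiment Sesn1 fell in WT Tregs, the 1 call among the 39 genes where 1% of all genes were called, and no member was called in RagAB KO Tregs, where 1.32% of all genes were. Without unstimulated RagAB KO array 2, 7 members (Rictor, Mios, Seh1l, Wdr59, Sec13, Fnip1 and Eif4ebp1, at 0.96 to 1.31) and 1948 of all 19505 genes were called in RagAB KO. That fit sets both stimulated arrays against 1 unstimulated array, the one of low signal, which is assumed to vary like the arrays of the other groups. With all arrays, 8 of the 39 passed an unadjusted p below 0.05 in RagAB KO and 8 in WT, where 14.4% and 15% of all genes did.

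**Figure D1:**
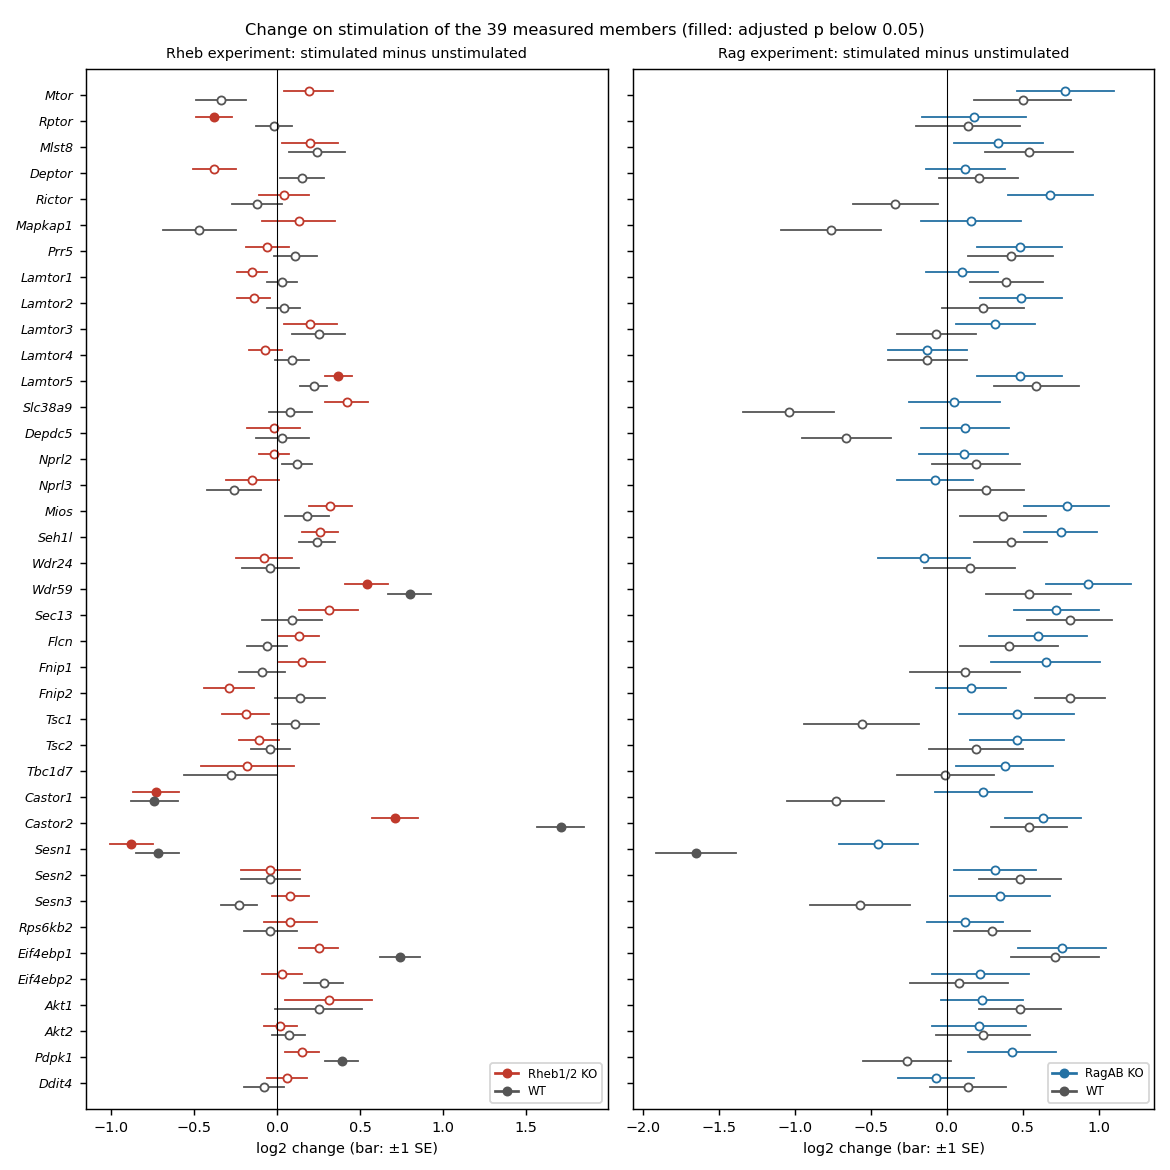
Change on stimulation (stimulated minus unstimulated, log2 units, bars ±1 SE of the limma fit) of the 39 measured genes, in knockout Tregs and WT Tregs of the Rheb experiment (left) and the Rag experiment (right). Filled points have an adjusted p below 0.05: 6 in each genotype of the Rheb experiment, Sesn1 alone in WT of the Rag experiment, and 0 in RagAB KO.

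The knockouts changed fewer still. In stimulated Tregs 1 gene, Castor2, fell in Rheb1/2 KO, where 0.543% of all genes were called. In unstimulated Tregs 1 gene, Mtor, fell, where 0.508% were. At an unadjusted p below 0.05 there were 4 and 7 of the 39, where 9.25% and 10.2% of all genes passed. The median difference of the 39 genes between Rheb1/2 KO and WT was -0.09 log2 units with stimulation and -0.05 without, beside -0.01 and 0.02 over all genes. No member was called between RagAB KO and WT, with stimulation (0.103% of all genes called) or without (0.113%), and 5 and 4 members passed an unadjusted p below 0.05, where 5.07% and 6.66% of all genes did.

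**Figure D2:**
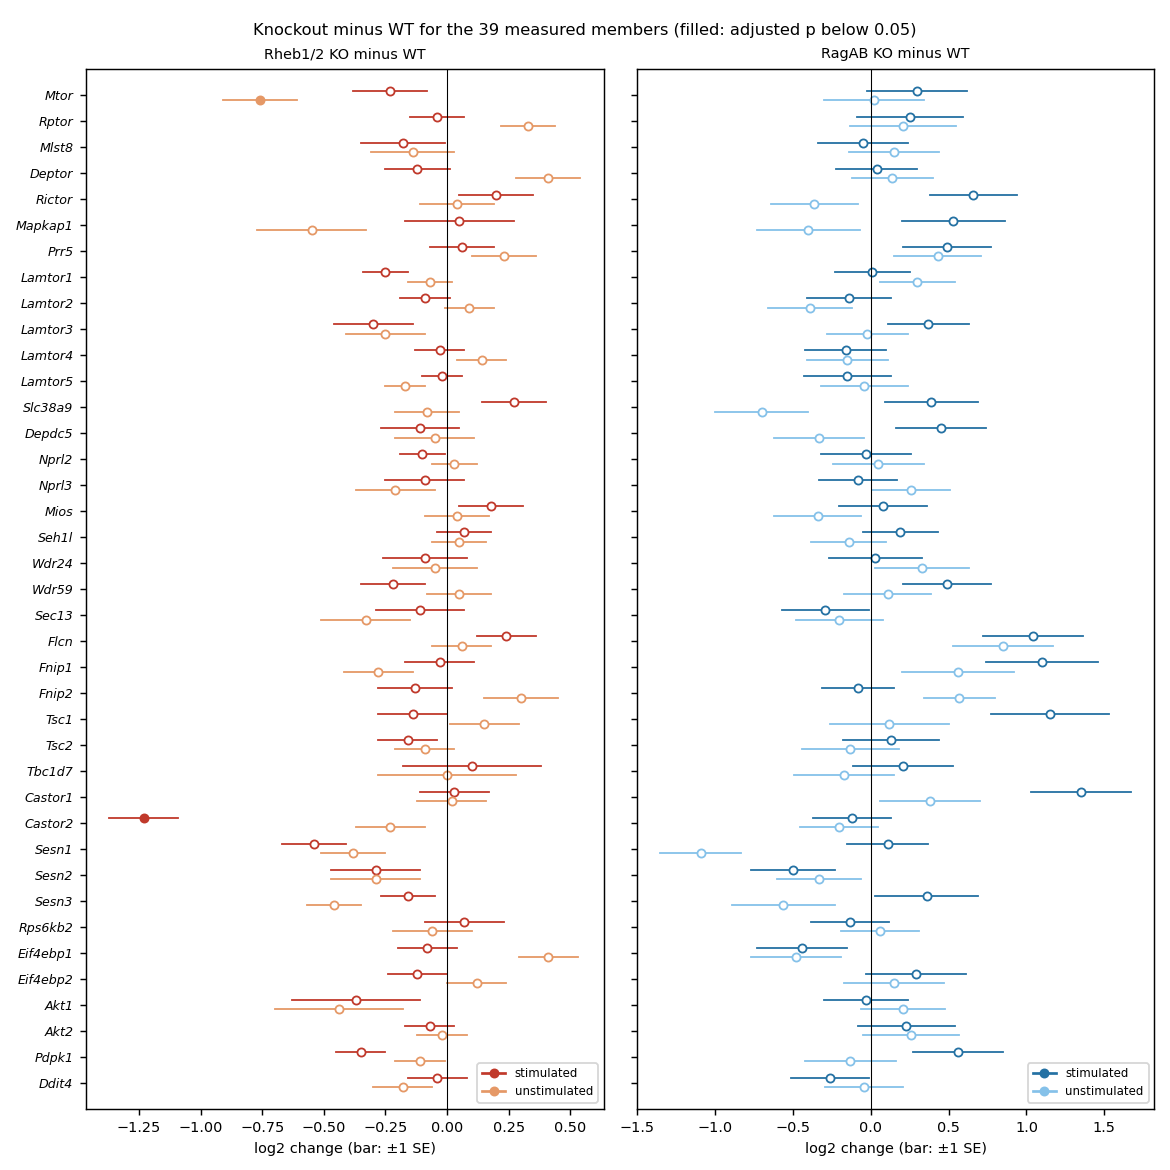
Knockout minus WT (log2 units, bars ±1 SE of the limma fit) for the 39 measured genes, in the Rheb experiment (left) and the Rag experiment (right), with stimulated above unstimulated for each gene. The filled points, with an adjusted p below 0.05, are Castor2 in stimulated Tregs (-1.23) and Mtor in unstimulated Tregs (-0.76), both lower in Rheb1/2 KO.

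Castor2 gave the lowest p of the set between a knockout and WT. Its product pairs with that of Castor1, the cytosolic arginine sensor that holds GATOR2 back when arginine is scarce. In stimulated Tregs Castor2 read 8.67, 8.61 and 8.57 log2 units on the Rheb1/2 KO arrays, against 9.83, 10.07 and 9.64 on the WT arrays. Every Rheb1/2 KO array lay below every WT array, by nearly a full log2 unit at the closest. The difference was -1.23 ± 0.14 (SE, n = 3 arrays a group), a level 0.426 times that of WT, with an adjusted p of 0.00191, and it ranked 5 by p among the 19505 genes. In unstimulated Tregs the arrays overlapped, with 7.84, 8.03 and 7.85 in Rheb1/2 KO and 8.20, 7.86 and 8.36 in WT (difference -0.23, adjusted p = 0.623).

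Seen from the side of stimulation, the same arrays showed Castor2 higher in both genotypes. In WT it rose by 1.71 ± 0.14, which is 3.27-fold (adjusted p = 8.41e-06), and in Rheb1/2 KO by 0.71 ± 0.14, which is 1.64-fold (adjusted p = 0.00425). The rise in Rheb1/2 KO minus that in WT was -1.0 ± 0.19 with a 95% interval of -1.42 to -0.58, but this interaction did not pass adjustment over all genes (adjusted p = 0.243), and limma called 0% of all genes in it, with 5 of the 39 and 6.19% of all genes at an unadjusted p below 0.05. The 3 Castor2 calls held whichever of the 12 arrays was left out, with the difference between stimulated Rheb1/2 KO and WT between -1.34 and -1.12. Genes of proliferation moved beside it, and their part in the Castor2 difference was not tested: 3 of 9 such genes were called lower in stimulated Rheb1/2 KO, none was called higher, and the mean of the 9 lay between 8.60 and 8.79 on the Rheb1/2 KO arrays and between 9.33 and 9.48 on the WT arrays. Of 9 dendritic cell markers, 8 were above WT in stimulated Rheb1/2 KO and 1, H2-Eb1, was called higher (0.78), with a list mean of 7.46 to 7.60 in Rheb1/2 KO and 7.28 to 7.47 in WT. The mean of 9 Treg markers was 10.61 to 10.65 in stimulated Rheb1/2 KO and 10.77 to 10.78 in WT. That of 12 genes that respond to cell dissociation was 9.37 to 9.44 and 9.31 to 9.33. The part of these lists in the Castor2 difference was not tested either.

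Between RagAB KO and WT Castor2 was not called. Stimulated arrays read 8.60 and 8.48 in RagAB KO, against 8.85 and 8.47 in WT, and unstimulated arrays read 7.81 and 8.02 in RagAB KO, against 8.37 and 7.86 in WT. The genotypes overlapped in both states, with differences of -0.12 (95% interval -0.67 to 0.43) and -0.20 (-0.75 to 0.34). Stimulated arrays lay above unstimulated ones in each genotype, by 0.63 in RagAB KO and 0.54 in WT, without a call (adjusted p = 0.264 and 0.337). The RagAB KO difference minus the Rheb1/2 KO difference in stimulated Tregs was 1.11 ± 0.26 (adjusted p = 0.0951), a comparison in which 0.19% of all genes and none of the 39 were called, with 9 of the 39 and 7.06% of all genes at an unadjusted p below 0.05.

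Castor1, the arginine sensor itself, moved the other way on stimulation. In WT Tregs of the Rheb experiment it read 8.38, 8.27 and 8.10 with stimulation, against 8.93, 9.02 and 9.01 without, and in Rheb1/2 KO Tregs 8.50, 8.09 and 8.24 with stimulation, against 9.25, 8.73 and 9.04 without. The stimulated arrays lay below the unstimulated ones in each genotype. Castor1 fell by 0.74 ± 0.14 in WT (adjusted p = 0.00419) and by 0.73 ± 0.14 in Rheb1/2 KO (adjusted p = 0.00405), and the 2 falls differed by 0.01 (95% interval -0.41 to 0.44). Both calls held whichever array was left out. Rheb1/2 KO and WT overlapped in both states, with a difference of 0.03 (95% interval -0.27 to 0.33) with stimulation and 0.02 (-0.28 to 0.32) without.

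After stimulation the genotypes of the Rag experiment did not overlap in Castor1. RagAB KO arrays read 10.31 and 9.85, against 8.99 and 8.48 in WT, and both RagAB KO arrays lay above both WT arrays. The difference of 1.35 ± 0.32 (2.54-fold, n = 2 arrays a group) did not pass adjustment in the fit over all 4 groups (adjusted p = 0.217), but it did with only the 2 groups compared in the fit (adjusted p = 0.00407), without unstimulated RagAB KO array 1 or 2 (0.0489 each) and with a trended robust prior (0.0361). It did not with quantile normalization repeated (1.25, adjusted p = 0.128), dim genes removed (0.0568) or a replicate block (0.0674), and over single arrays left out the adjusted p ran from 0.0489 to 1. Without stimulation the arrays read 9.82 and 9.86 in RagAB KO, against 9.95 and 8.97 in WT, and overlapped. In WT of that experiment stimulated Castor1 differed from unstimulated by -0.73 (adjusted p = 0.316), or by -1.22 (adjusted p = 0.0238) without both arrays of lowest signal, where 1 unstimulated WT array remained and was assumed to vary like the other groups, and in RagAB KO by 0.24 (adjusted p = 0.907). The RagAB KO difference minus the Rheb1/2 KO difference in stimulated Tregs was 1.32 ± 0.33 (adjusted p = 0.136).

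Sesn1, which encodes a leucine-binding sestrin, fell on stimulation in both experiments. In WT Tregs of the Rheb experiment it read 9.78, 9.81 and 9.92 with stimulation, against 10.54, 10.52 and 10.62 without (-0.72 ± 0.13, adjusted p = 0.00238). In Rheb1/2 KO Tregs it read 9.53, 9.28 and 9.08 with stimulation, against 9.98, 10.18 and 10.37 without (-0.88 ± 0.13, adjusted p = 0.000499). Stimulated arrays lay below unstimulated ones in each genotype, and both calls held whichever array was left out. Within each state the Rheb1/2 KO arrays also lay below the WT arrays, by 0.54 with stimulation and 0.38 without, neither of which was called (adjusted p = 0.0945 and 0.289).

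In WT Tregs of the Rag experiment Sesn1 read 8.88 and 8.78 after stimulation, against 10.38 and 10.57 without. The fall of 1.65 ± 0.26 (0.319 times, adjusted p = 0.00948) was the 1 call of the 39 genes in that experiment. The call was lost without stimulated WT array 1 (-1.70), stimulated WT array 2 (-1.60) or unstimulated WT array 2 (-1.55), each leaving 1 array in an arm. It was kept without unstimulated WT array 1 (-1.75), which leaves the low-signal array alone in that arm. In RagAB KO Tregs Sesn1 read 8.97 and 8.89 with stimulation, against 9.05 and 9.73 without (-0.45, adjusted p = 0.494). Unstimulated RagAB KO arrays thus lay below both unstimulated WT arrays (-1.09, adjusted p = 0.27), while with stimulation the difference was 0.11 (adjusted p = 0.973). Without unstimulated RagAB KO array 2, which leaves the low-signal array alone in that arm, the unstimulated difference was -1.42 (adjusted p = 0.0141). The change in RagAB KO minus that in WT was 1.19 with a 95% interval of 0.41 to 1.98 and an adjusted p of 0.728, in a comparison where limma called 0% of all genes, with 3 of the 39 and 6.16% of all genes at an unadjusted p below 0.05.

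**Figure D3:**
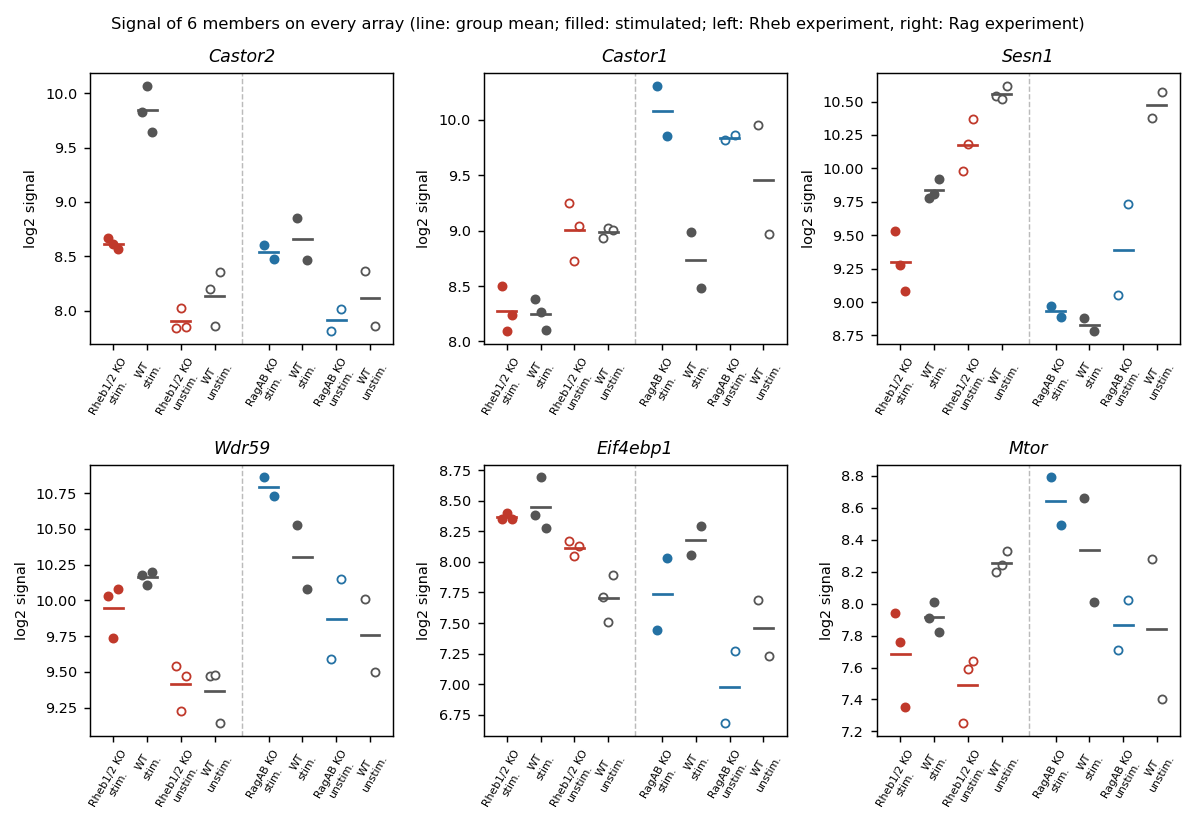
Log2 signal of Castor2, Castor1, Sesn1, Wdr59, Eif4ebp1 and Mtor on each of the 20 arrays (points) with the group mean (line), the Rheb experiment left of the dashed line and the Rag experiment right of it, stimulated arrays filled. Stimulated WT arrays of the Rheb experiment stand above the other groups of that experiment in Castor2 (9.64 to 10.07), and unstimulated Rheb1/2 KO arrays lie below unstimulated WT arrays in Mtor (7.25 to 7.64, against 8.20 to 8.33).

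The promoter windows of these 3 sensor genes are shown because the genes moved in different directions under the same stimulus. Each window runs from 250 bases before to 50 bases after a gene's start, from RefSeq on GRCm38.p6, and 33 of the 39 genes matched, with 41 windows. The Castor2 window is chr5:134099498-134099797 on the plus strand, the Castor1 window chr11:4217975-4218274 on the plus strand, and the Sesn1 windows chr10:41810324-41810623 and chr10:41887189-41887488 on the plus strand. Capitals mark matches, on either strand, to CCAAT, to the GC box GGGGCGG and to the FOXO motif GTAAACA.
Castor2: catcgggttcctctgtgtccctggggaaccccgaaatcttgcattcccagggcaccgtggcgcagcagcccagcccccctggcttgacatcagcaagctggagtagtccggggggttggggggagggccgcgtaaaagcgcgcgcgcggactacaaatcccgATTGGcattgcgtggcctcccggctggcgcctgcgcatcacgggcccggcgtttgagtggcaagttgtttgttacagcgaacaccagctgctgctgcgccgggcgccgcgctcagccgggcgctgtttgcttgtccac
Castor1: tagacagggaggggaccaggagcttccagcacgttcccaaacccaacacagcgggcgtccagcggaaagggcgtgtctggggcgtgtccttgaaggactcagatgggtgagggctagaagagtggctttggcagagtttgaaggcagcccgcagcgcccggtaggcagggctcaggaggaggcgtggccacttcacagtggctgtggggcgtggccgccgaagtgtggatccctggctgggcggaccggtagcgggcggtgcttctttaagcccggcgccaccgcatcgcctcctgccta
Sesn1, upstream window: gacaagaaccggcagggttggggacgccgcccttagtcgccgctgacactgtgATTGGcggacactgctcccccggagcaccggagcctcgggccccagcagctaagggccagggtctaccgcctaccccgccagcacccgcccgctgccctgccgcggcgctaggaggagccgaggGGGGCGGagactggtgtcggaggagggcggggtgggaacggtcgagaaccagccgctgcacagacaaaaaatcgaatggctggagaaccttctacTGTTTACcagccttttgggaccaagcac
Sesn1, downstream window: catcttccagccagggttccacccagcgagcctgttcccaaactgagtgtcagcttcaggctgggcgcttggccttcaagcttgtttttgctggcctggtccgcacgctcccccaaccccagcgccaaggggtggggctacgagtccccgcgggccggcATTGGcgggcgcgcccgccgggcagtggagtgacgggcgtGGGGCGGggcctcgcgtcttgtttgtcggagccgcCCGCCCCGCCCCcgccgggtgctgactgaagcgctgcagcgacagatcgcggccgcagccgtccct
Castor2 held 1 CCAAT match, Castor1 held no match to any motif searched, and the upstream Sesn1 window held 1 FOXO, 1 GC box and 1 CCAAT match. In the downstream Sesn1 window 3 GC boxes were found, a pair of which overlap, with 1 CCAAT match. CCAAT was present in 17 of the 41 member windows and in 37.4% of all 32851 windows, the GC box in 16 and in 23.2%, and the FOXO motif in 4 (of Akt1, Mapkap1 and Sesn1) and in 3.65%. Of the other motifs searched on both strands, CACGTG was in 4 member windows (7.15% of all), TGACGT in 3 (7.51%), TGATGNAA in 2 (3.97%), GGAAAA in 8 (23.4%), the NF-kB motif in 1 (1.47%), CCGGAAG in 8 (8.86%) and TGANTCA in 0 (7.81%). These matches describe letters in a window and were not tested against the expression values.

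The other sestrins were not called. Sesn2, whose product binds leucine and which responds to stress, ranged over 6.36 to 7.88 and overlapped between stimulated and unstimulated arrays in both genotypes of the Rheb experiment. On Rag arrays Sesn2 read 6.66 and 6.96 in stimulated RagAB KO, against 6.36 and 6.62 without stimulation. WT there read 7.29 and 7.31 with stimulation, against 7.20 and 6.43 without. Stimulated arrays lay above unstimulated ones in each genotype. Stimulated RagAB KO arrays lay below WT arrays (-0.5), where 26.2% of all genes did. Sesn3, of the same family, read 10.33, 10.26 and 10.37 in unstimulated Rheb1/2 KO, against 10.96, 10.71 and 10.67 in WT. These groups did not overlap, and the difference of -0.46 had an adjusted p of 0.0833. Of the 39 genes, 6 lay below and 2 above WT on all stimulated Rheb1/2 KO arrays, where 8.8% and 6.75% of all genes did, and 5 lay below and 3 above on all unstimulated ones, where 7.08% and 7.62% did.

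GATOR2 passes the sensors' signal on to GATOR1. Among its 5 subunits, Wdr59 was called: it rose on stimulation in WT Tregs of the Rheb experiment by 0.80 ± 0.13 (adjusted p = 0.00128) and in Rheb1/2 KO Tregs by 0.54 ± 0.13 (adjusted p = 0.0152). Wdr59 read 10.18, 10.11 and 10.20 on stimulated WT arrays, against 9.47, 9.48 and 9.14 on unstimulated ones, and 10.03, 9.74 and 10.08 on stimulated Rheb1/2 KO arrays, against 9.54, 9.23 and 9.47 on unstimulated ones. Stimulated arrays lay above unstimulated ones in both genotypes. The call in Rheb1/2 KO was lost without unstimulated array 2 (adjusted p = 0.075), stimulated array 1 (0.0652) or stimulated array 3 (0.0732). On Rag arrays Wdr59 read 10.86 and 10.73 on stimulated RagAB KO arrays, against 9.59 and 10.15 on unstimulated ones (0.93, adjusted p = 0.124), and 10.53 and 10.08 on stimulated WT arrays, against 10.01 and 9.50 on unstimulated ones (0.54, adjusted p = 0.363).

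Mios, Seh1l, Wdr24 and Sec13, the other GATOR2 subunits, were not called, and Seh1l and Sec13 also serve in the nuclear pore. In Rheb1/2 KO Tregs of the Rheb experiment their changes on stimulation ran from -0.08 (Wdr24) to 0.32 (Mios, adjusted p = 0.151). In RagAB KO Tregs they ran from -0.15 (Wdr24) to 0.79 (Mios, adjusted p = 0.186), and in WT of the Rag experiment from 0.15 (Wdr24) to 0.81 (Sec13). The GATOR1 subunits Depdc5, Nprl2 and Nprl3, which together form the enzyme that turns RagA and RagB off, moved by -0.15 to 0.12 on stimulation in the Rheb experiment, apart from Nprl3 in WT (-0.26, adjusted p = 0.418). Their differences between Rheb1/2 KO and WT ran from -0.11 to -0.09 with stimulation and from -0.21 to 0.03 without. On stimulation in the Rag experiment the GATOR1 genes moved by -0.08 to 0.12 in RagAB KO and by -0.66 (Depdc5) to 0.26 in WT, without a call.

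Ragulator, made of Lamtor1 to Lamtor5, ties the Rag GTPases to the lysosome. Lamtor5 rose in stimulated Rheb1/2 KO Tregs, which read 11.80, 11.89 and 11.81, against 11.44, 11.49 and 11.44 without stimulation. The arrays of the groups did not overlap, and the rise of 0.37 ± 0.08 (1.30-fold) had an adjusted p of 0.0109, or 0.0537 without stimulated Rheb1/2 KO array 2. In WT Lamtor5 read 11.79, 11.87 and 11.90 with stimulation, against 11.57, 11.64 and 11.68 without. These groups did not overlap either, and the change of 0.22 was not called (adjusted p = 0.127). Of 5 alternatives 1, the trended robust prior, called it (0.0083). On Rag arrays Lamtor5 read 11.75 and 11.83 in stimulated RagAB KO, against 11.23 and 11.38 without stimulation. WT read 11.92 and 11.95 with stimulation, against 11.78 and 10.92 without. Neither Rag change was called. Lamtor1 to Lamtor4 were not called in any comparison, and in the Rheb experiment their changes on stimulation ran from -0.15 to 0.25.

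Slc38a9, a lysosomal arginine transporter that also signals to Ragulator, differed in the Rag experiment without a call. In WT it read 7.45 and 7.05 with stimulation, against 7.88 and 8.70 without (-1.04, adjusted p = 0.131), and in RagAB KO 7.60 and 7.68 with stimulation, against 7.36 and 7.82 without (0.05, adjusted p = 0.989). The WT arrays did not overlap and the RagAB KO arrays did. The WT change had an adjusted p of 0.0318 with only the 2 groups compared in the fit and of 0.023 with a trended robust prior. It did not pass with quantile normalization repeated (-1.22, adjusted p = 0.0679), dim genes removed (0.0689) or a replicate block (0.116). The change was -1.04 without unstimulated RagAB KO array 1 or 2. Without both arrays of lowest signal it was -0.63, against 1 unstimulated WT array. In the Rheb experiment stimulated Rheb1/2 KO arrays read 9.44, 9.45 and 9.72, against 9.18, 9.29 and 8.87 on unstimulated ones (0.42, adjusted p = 0.0541).

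Folliculin and its partners Fnip1 and Fnip2 act on RagC and RagD, which pair with RagA or RagB. Flcn read 12.50 and 12.14 in stimulated RagAB KO Tregs, against 11.51 and 11.06 in WT, and 11.39 and 12.05 in unstimulated RagAB KO Tregs, against 11.27 and 10.48 in WT. RagAB KO arrays lay above WT arrays in both states, by 1.04 with stimulation (adjusted p = 0.481) and 0.85 without (0.667). Fnip1 read 9.95 and 9.81 in stimulated RagAB KO, against 9.14 and 8.42 in WT (1.10, adjusted p = 0.598). Tsc1, the stabilising subunit of the TSC complex that silences Rheb, read 10.47 and 10.28 in stimulated RagAB KO, against 9.78 and 8.66 in WT (1.15, adjusted p = 0.594).

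For Flcn, Fnip1 and Tsc1 the stimulated RagAB KO arrays thus lay above both stimulated WT arrays, with no call in the 4-group fit. With the 2 stimulated groups alone in the fit the adjusted p was 0.0206 for Flcn, 0.0206 for Fnip1 and 0.0461 for Tsc1. None of the 3 passed with quantile normalization repeated (0.145, 0.357 and 0.295), dim genes removed (0.261, 0.283 and 0.257), a trended robust prior (0.441, 0.227 and 0.245) or a replicate block (0.409, 0.538 and 0.498). Of all 39 genes, 15 lay above and 6 below WT on both stimulated RagAB KO arrays, where 18.1% and 26.2% of all genes did. Without stimulation 3 lay above and 3 below, where 15.9% and 12.5% did. In the Rheb experiment none of the 3 differed by more than 0.28 between Rheb1/2 KO and WT in either state, and none was called. Tests of the RagAB KO difference minus the Rheb1/2 KO difference in stimulated Tregs gave 0.79 for Flcn (adjusted p = 0.6), 1.13 for Fnip1 (0.423) and 1.29 for Tsc1 (0.338). In unstimulated Tregs that difference was called for 0.0564% of all genes and for none of the 39 by limma, with 6 of the 39 and 7.31% of all genes at an unadjusted p below 0.05. Markers that differed between stimulated RagAB KO and WT stand beside these values and those of Castor1, and their part in them was not tested. Of 9 Treg markers Nt5e was called lower (-1.56) and 6 were above WT, with a list mean of 10.56 to 10.73 in RagAB KO and 10.40 to 10.86 in WT. No dendritic cell, CD8 T and NK cell, macrophage or B cell marker was called by limma, with 3, 1, 0 and 0 at an unadjusted p below 0.05, but single dendritic cell markers reached 1.46 and single CD8 T and NK cell markers 1.76. The dendritic cell list mean was 7.45 to 7.74 in RagAB KO and 7.24 to 7.25 in WT, and that of the CD8 T and NK cell list 6.75 to 7.06 in RagAB KO and 6.39 to 6.59 in WT.

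**Figure D4:**
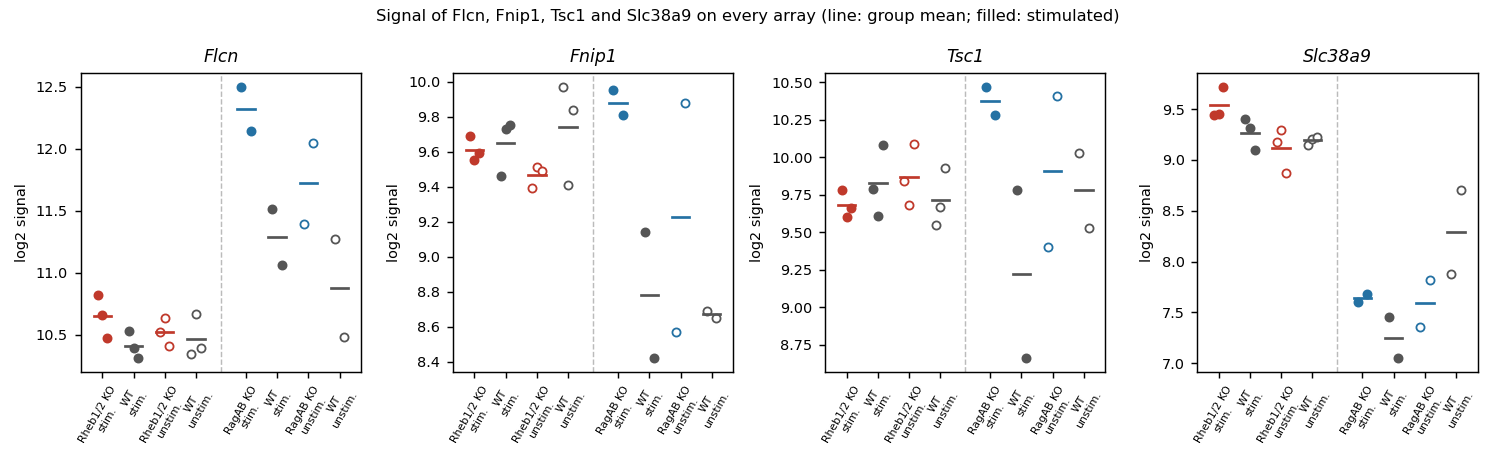
Log2 signal of Flcn, Fnip1, Tsc1 and Slc38a9 on each of the 20 arrays (points) with the group mean (line), the Rheb experiment left of the dashed line and the Rag experiment right of it, stimulated arrays filled. In stimulated Tregs of the Rag experiment the RagAB KO points of all 4 genes lie above the WT points, for Flcn at 12.50 and 12.14 against 11.51 and 11.06.

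Mtor, the kinase itself, was lower in unstimulated Rheb1/2 KO Tregs, at 7.25, 7.59 and 7.64, against 8.20, 8.24 and 8.33 in WT. All Rheb1/2 KO arrays lay below all WT arrays, and the difference of -0.76 ± 0.15, a level 0.589 times that of WT, had an adjusted p of 0.0421. This call was lost without any 1 of the 6 unstimulated arrays (adjusted p between 0.0556 and 0.152), without stimulated Rheb1/2 KO array 2 (0.0614) and without stimulated WT array 1 or 2 (0.0587 and 0.0554). With stimulation the groups overlapped, with 7.94, 7.76 and 7.35 in Rheb1/2 KO and 7.91, 8.01 and 7.82 in WT (-0.23, adjusted p = 0.724). On Rag arrays Mtor read 8.79 and 8.49 in stimulated RagAB KO, against 7.71 and 8.02 without stimulation (0.78, not called). WT of the Rag experiment read 8.66 and 8.01 with stimulation, against 8.28 and 7.40 without, and overlapped. RagAB KO and WT overlapped in both states. In unstimulated Rheb1/2 KO all 10 macrophage markers measured were above WT, 2 of them called, and their mean lay between 7.81 and 7.90, against 7.38 and 7.43 in WT, with 1 and 2 of them below the median of the negative control probes on every array of the group. Of the dendritic cell markers, 8 of 9 were above WT with 2 called, and their mean lay between 8.03 and 8.19, against 7.67 and 7.81. Of 9 Treg markers 2 were called lower (means 10.31 to 10.53 in Rheb1/2 KO and 10.66 to 10.74 in WT), and of 8 CD8 T and NK cell markers 1 was called higher (7.08 to 7.37 and 6.92 to 7.18). All 9 proliferation genes were below WT and 1 was called lower (8.57 to 8.76 in Rheb1/2 KO and 8.73 to 9.12 in WT). The part of these lists in the Mtor difference was not tested.

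Of the measured partners of mTOR, Rptor alone was called. Rptor, which encodes the substrate-binding subunit Raptor, fell on stimulation in Rheb1/2 KO Tregs, which read 10.43, 10.42 and 10.41, against 10.85, 10.71 and 10.85 without stimulation (-0.38 ± 0.11, adjusted p = 0.0353). The groups did not overlap, but the call was lost without any 1 of these 6 arrays (adjusted p between 0.0527 and 0.106). In WT the change of Rptor was -0.02, with 10.37, 10.34 and 10.66 on stimulated arrays, against 10.40, 10.60 and 10.41 on unstimulated ones. All unstimulated Rheb1/2 KO arrays lay above WT without a call, where 7.62% of all genes lay above, while the stimulated genotypes overlapped. On Rag arrays Rptor read 11.96 and 11.63 in stimulated RagAB KO, against 11.29 and 11.93 in unstimulated RagAB KO. It read 11.79 and 11.30 in stimulated WT, against 11.91 and 10.91 in unstimulated WT. Mlst8, a subunit of both mTOR complexes, was not called in any of the 12 comparisons, and neither were the mTORC2 genes Rictor, Mapkap1 and Prr5. Stimulated RagAB KO arrays lay above WT arrays in all 3 mTORC2 genes (0.49 to 0.66), where 18.1% of all genes did. Without stimulation the 3 genes differed by -0.40 to 0.43 between RagAB KO and WT. In unstimulated Rheb1/2 KO all arrays lay below WT in Mapkap1 (-0.55), where 7.08% of all genes did. Deptor, an mTOR inhibitor, lay below the median of the negative control probes on all 20 arrays, so its differences rest on background signal. Tbc1d7 was below that median on 16 arrays, Prr5 on 13, Fnip2 on 12 and Sesn2 on 2, and the other 34 genes on 0. Against the 95th percentile of the negative control probes, Mtor and Eif4ebp1 were above it on 0 of 20 arrays, Castor2 on 1, Castor1 on 4, Pdpk1 on 6, Sesn1 on 8 and Wdr59 on 10, so their folds are of signals within the upper range of these probes on the remaining arrays.

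On the growth factor side, Pdpk1, the kinase that phosphorylates Akt and S6 kinase, rose on stimulation in WT Tregs of the Rheb experiment, at 9.82, 9.78 and 9.73, against 9.43, 9.30 and 9.43 without stimulation. The rise of 0.39 ± 0.10 had an adjusted p of 0.0252, and was lost without stimulated WT array 1 or 2 (0.0847 and 0.0697) or unstimulated WT array 1 or 2 (0.0511 and 0.0867). In Rheb1/2 KO Pdpk1 read 9.39, 9.56 and 9.34 with stimulation, against 9.22, 9.17 and 9.44 without, a change of 0.15 (adjusted p = 0.46). On Rag arrays Pdpk1 read 10.22 and 10.21 in stimulated RagAB KO, against 9.39 and 10.18 without stimulation. WT of the Rag experiment read 9.93 and 9.39 with stimulation, against 10.03 and 9.79 without. Neither Rag change was called. Tsc2, the catalytic TSC subunit, differed by at most 0.16 in the comparisons within the Rheb experiment, and Akt2 by at most 0.07. Akt1 varied more among its arrays of the Rheb experiment (pooled SD 0.38, and 0.29 in the Rag experiment) and was not called. Ddit4, a stress-induced inhibitor of mTORC1 signalling, moved by no more than 0.26 in the comparisons of 2 groups.

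Among the targets of mTORC1, Eif4ebp1, which encodes the translation repressor 4E-BP1, rose on stimulation in WT Tregs of the Rheb experiment. Stimulated WT arrays read 8.38, 8.69 and 8.28, against 7.71, 7.51 and 7.89 without stimulation, and the rise of 0.74 ± 0.12 (1.68-fold) had an adjusted p of 0.00155, with the call kept whichever array was left out. Rheb1/2 KO arrays read 8.35, 8.40 and 8.35 with stimulation, against 8.17, 8.05 and 8.13 without (0.25, adjusted p = 0.257). Without stimulation the Rheb1/2 KO arrays lay above the WT arrays (0.41, adjusted p = 0.21), and with it the groups overlapped. The change in Rheb1/2 KO minus that in WT was -0.49 (95% interval -0.86 to -0.12, adjusted p = 0.713). On Rag arrays Eif4ebp1 read 7.44 and 8.03 in stimulated RagAB KO, against 6.68 and 7.27 without stimulation (0.76, adjusted p = 0.231). WT of the Rag experiment read 8.06 and 8.29 with stimulation, against 7.69 and 7.23 without (0.71, not called). Stimulated Rag arrays lay above unstimulated ones in each genotype. Eif4ebp2 and Rps6kb2, the genes of 4E-BP2 and of the other S6 kinase, were not called.

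Several marker lists moved with stimulation in the Rheb experiment, and their part in the changes of the sensors, Wdr59, Lamtor5, Rptor, Pdpk1 and Eif4ebp1 was not tested. Of 12 genes that respond to cell dissociation, 11 were called lower in Rheb1/2 KO and 10 in WT. The mean of the 12 lay between 9.37 and 9.44 on stimulated Rheb1/2 KO arrays, against 10.43 and 10.63 on unstimulated ones, and between 9.31 and 9.33 on stimulated WT arrays, against 10.51 and 10.55. Of 10 macrophage markers, 7 were called lower in each genotype, with means of 6.68 to 6.69 on stimulated Rheb1/2 KO arrays, against 7.81 to 7.90, and 6.69 to 6.89 on stimulated WT arrays, against 7.38 to 7.43. On stimulated arrays 6 of the 10 in Rheb1/2 KO and 4 in WT were below the negative control median on every array of the group. Of 9 dendritic cell markers 4 were called lower in each genotype, and of 8 CD8 T and NK cell markers 1 was in Rheb1/2 KO and 2 were in WT. Of 5 B cell markers none was called, while 1 in Rheb1/2 KO and 1 in WT passed an unadjusted p below 0.05. Of 9 proliferation genes, 1 was higher and 1 lower in Rheb1/2 KO, and 3 were higher and 1 lower in WT. Of 9 Treg markers 5 were higher and 2 lower in Rheb1/2 KO, and 3 were higher and 1 lower in WT. On stimulation in the Rag experiment 3 dissociation genes were higher and 2 lower in RagAB KO, and 2 were higher and 3 lower in WT, while 2 Treg markers were higher in RagAB KO. In the same experiment no macrophage, dendritic, B cell or CD8 T and NK cell marker was called on stimulation by limma. At an unadjusted p below 0.05 there were 1 dendritic cell and 2 CD8 T and NK cell markers in RagAB KO, and 1 macrophage and 2 CD8 T and NK cell markers in WT.

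The level of all genes also differed between stimulated and unstimulated arrays of the Rag experiment. Array medians were 7.52 and 7.18 in unstimulated WT, against 7.52 and 7.55 in stimulated WT. In RagAB KO they were 7.29 and 7.48 without stimulation, against 7.49 and 7.49 with it. Unstimulated WT array 2 and unstimulated RagAB KO array 1 were low, and the other unstimulated array of each genotype was near the stimulated ones. The median change over all genes was 0.09 in RagAB KO and 0.21 in WT, and that over the 39 genes was 0.32 and 0.21. In RagAB KO 34 of the 39 genes were above 0, but after quantile normalization was repeated on these arrays 24 were, with a median of 0.06 beside -0.03 over all genes. The same step brought the WT medians to 0.06 over the 39 genes and 0.04 over all genes, and Sesn1 in WT to -1.81 (adjusted p = 0.00288). It also moved the share of higher genes among all calls to 56.3% in RagAB KO (215 higher and 167 lower, beside 234 and 24 as deposited) and to 32.6% in WT (208 and 430, beside 93 and 102 as deposited).

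Further genes of the pathway were called on stimulation, while none was called between a knockout and WT. Of all genes, 9.75% were called on stimulation in Rheb1/2 KO and 9.37% in WT of the Rheb experiment. In the Rag experiment 1.32% were in RagAB KO and 1% in WT. Of 15 genes of KICSTOR, other sensors and chaperones of mTOR, limma called 4 higher on stimulation in Rheb1/2 KO and 1 higher in WT of the Rheb experiment, and 1 higher in RagAB KO and 0 in WT of the Rag experiment. Rragd, which encodes RagD, rose by 1.06 in Rheb1/2 KO (adjusted p = 6.38e-05), by 1.02 in WT (0.000129) and by 1.83 in RagAB KO (0.0109). Of 13 genes of growth factor and energy input, 1 was higher and 3 lower in each genotype of the Rheb experiment, and 2 were higher in RagAB KO and 1 lower in WT of the Rag experiment. Pik3ip1, an inhibitor of PI3-kinase, fell by 1.17 in Rheb1/2 KO (adjusted p = 0.00171), by 1.14 in WT (0.0023) and by 1.93 in WT of the Rag experiment (0.00948), and Phlpp1, a phosphatase of Akt, rose by 1.42 in Rheb1/2 KO (6.26e-06), by 1.14 in WT (3.66e-05) and by 1.69 in RagAB KO (0.0179). Of 13 output genes, 1 was higher and 3 lower in Rheb1/2 KO, 3 were lower in WT, and 0 were called in the Rag experiment. At an unadjusted p below 0.05 there were 3 in each genotype of the Rag experiment, where 14.4% (RagAB KO) and 15% (WT) of all genes passed. Foxo1, a transcription factor held back by Akt, fell by 0.61 in Rheb1/2 KO and 0.49 in WT (adjusted p = 0.00047 and 0.00257). Between either knockout and WT limma called none of the genes of these 3 lists, with or without stimulation, where 0.103% to 0.543% of all genes were called. Between 1 and 3 genes of each list passed an unadjusted p below 0.05, where 5.07% to 10.2% of all genes did.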

How the data were processed

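Total RNA was amplified and hybridised to Clariom S mouse arrays. Per the submitters' processing notes the authors normalized the arrays by RMA in Affymetrix Expression Console 1.1, and the deposited values are log2 signals. The sources used here do not say if the experiments were normalized jointly, so levels are not compared between experiments or between probe sets. Of 28846 probe sets in the table, 19572 had 1 gene, and for 55 genes with several the one of highest mean was kept, leaving 19505 genes. Arrays fall into 8 groups by title.

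In R 4.3.3, limma 3.58.1 (lmFit and eBayes) was fitted to the 4 groups of each experiment, and to all 20 arrays for differences between knockout effects. The 12 comparisons were adjusted by Benjamini-Hochberg over all genes and called at 0.05. Background was read from 5222 negative control probe sets. The fit was tested on simulated data. Alternatives were repeated quantile normalization, removal of dim genes, a trended robust prior, only the 2 groups compared, a replicate block and leaving out arrays. Members, gene lists and comparisons were chosen with earlier results of these data known. By the naming rule every member could be named, with values per array for those called in any comparison; uncalled members given by array were chosen after their values were seen.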

Additional observations from a re-analysis of the deposited data

How the results depend on the processing

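The 40 pairs of a member and a comparison that were called in at least 1 setting showed no change of sign. Fnip1 on stimulation of RagAB KO went to 0 without both Rag arrays of lowest signal. Pairs picked by a call in some setting tend to have large changes, so their kept sign does not speak for other pairs. Uncalled genes outside these did change sign when quantile normalization was repeated (members above 0 on stimulation of RagAB KO fell to 24, against 34 as deposited). Counts of calls moved with the fit, more so in the Rag experiment with its 2 arrays a group. Genes called between Rheb1/2 KO and WT without stimulation numbered 99, and 200 with a trended robust prior and 27 with only the 2 groups in the fit, with members at 1, 2 and 0. With stimulation they numbered 106, and 214 (2 members) with the trended prior and 59 with only the 2 groups. On stimulation of WT in the Rheb experiment 1828 genes became 1170 with only the 2 groups. The Rheb interaction had 0 called genes, 1 with dim genes removed and 7 with the trended prior.

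Between RagAB KO and WT without stimulation 22 genes were called, and 43 with quantile normalization repeated, 36 with dim genes removed, 96 with the trended prior and 12 with only the 2 groups. The higher share of these calls was 45.5%, and 60.5% with quantile normalization repeated. With stimulation 20 became 42, 57, 106 (1 member) and 274 (4 members). On stimulation of WT in the Rag experiment 195 became 638, 354, 490 (2 members) and 649 (2 members). On stimulation of RagAB KO 258 became 529 with dim genes removed, 553 with the trended prior and 60 with only the 2 groups. The Rag interaction had 0 called genes, 1 with dim genes removed and 10 with the trended prior. The RagAB KO effect minus the Rheb1/2 KO effect had 11 called genes without stimulation, and 21 with quantile normalization repeated, 17 with dim genes removed and 6 with the trended prior. The higher share there was 72.7%, and 61.9% with quantile normalization repeated. With stimulation it had 37 called genes, and 64 with quantile normalization repeated, where 1 member, Castor2, was called. Leaving out both Rag arrays of lowest signal was chosen after seeing the data: it gave 274 genes and 4 members between stimulated RagAB KO and WT, 565 and 2 on stimulation of WT, and 3 genes without stimulation and 124 genes and 2 members with it for the difference between knockout effects. The causes of these moves were not tested.

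Leaving out 1 array at a time gave these ranges of genes and of members called. Between Rheb1/2 KO and WT they were 39 to 104 and 0 to 1 without stimulation, and 25 to 106 and 1 to 1 with it. On stimulation they were 1356 to 2011 and 4 to 7 in Rheb1/2 KO, and 1263 to 1802 and 5 to 6 in WT, with 0 to 0 for both in the interaction. Between RagAB KO and WT they were 0 to 530 and 0 to 1 without stimulation, and 2 to 109 and 0 to 1 with it. On stimulation they were 45 to 1948 and 0 to 7 in RagAB KO, and 13 to 600 and 0 to 2 in WT, with 0 to 387 and 0 to 1 in the interaction. For the difference between knockout effects they were 5 to 871 and 0 to 2 without stimulation, and 12 to 130 and 0 to 3 with it. In stimulated Tregs the members called in some of these fits were Castor2, Castor1 and Tsc1, each time with 1 array left in a Rag group. Without stimulated WT array 1 of the Rag experiment the difference was 1.30 for Castor2, 1.57 for Castor1 and 1.85 for Tsc1. Without unstimulated WT array 1 or 2 it was 1.11 for Castor2 and 1.32 for Castor1.

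Replicate numbers were shared between groups. In the Rheb experiment same-numbered arrays correlated over 0.1 in their deviations from the group mean in 2 of 18 pairs (r from -0.2 to 0.18). Arrays of different number there gave r from -0.19 to 0.26. In the Rag experiment 6 of 12 same-numbered pairs correlated over 0.1 (r from -0.43 to 0.23). With 2 arrays a group the deviations mirror each other, so each r occurs in 2 pairs and pairs of different number only reverse its sign. The Rag pairs therefore cannot show whether the numbers mark a pairing. In neither experiment were the numbers taken as a pairing. With the replicate number as a block, 52 genes were called between stimulated Rheb1/2 KO and WT and 42 between stimulated RagAB KO and WT. Under this block the calls of Mtor (adjusted p = 0.0712, leaving 0 members called without stimulation), Pdpk1 (0.0519) and Rptor (0.0618) were lost.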
